A study of Mus musculus with 10 samples.

Results

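The clustered protocadherin locus was examined in testis DNA of F2 mice, the second generation of offspring. Its members were all cytosines of the deposited CpG count table on mouse chromosome 18 from 36900000 to 37900000 (mm10): 1903 cytosines on 1237 CpGs, out of 1988759 cytosines in the whole table. Methylation had been measured by reduced representation bisulfite sequencing (RRBS), in which DNA is cut at CpG-containing sites, short fragments are kept, and bisulfite turns unmethylated cytosines into bases sequenced as T. There were 5 control and 5 arsenic libraries, and the labels give the generation, the tissue and the group, but no strain, age, dose, route or exposed generation. The labels name one library per sample and do not say that the libraries came from separate animals, so p-values reflect library-to-library spread that may be technical. Control libraries 4 and 5 stood apart over the whole table, with 16.9% and 18.8% of cytosines fully methylated, against 11.1% to 14.9% in the other 8 libraries. The data hold no expression, so the labelled tissue was not checked against expressed markers. In bulk tissue, a change in the mix of cell types and a change of methylation within cells cannot be told apart.

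Clustered protocadherins are cell-surface adhesion proteins of the cadherin family. Their genes stand in tandem as the alpha, beta and gamma clusters, and neurons are known for expressing few of them at a time from stochastically chosen promoters. In the alpha and gamma clusters a large variable first exon, with its own promoter, encodes the extracellular domain and is spliced to shared constant exons. The beta genes are single-exon genes with no constant exons. Promoter methylation is known to silence these genes, and the DNA-binding protein CTCF with cohesin connects active promoters to distant enhancers. The c-type genes at the end of the alpha and gamma clusters (Pcdhac1, Pcdhac2, Pcdhgc3, Pcdhgc4 and Pcdhgc5) are known for a more uniform, less stochastic expression in neurons.

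Cytosines were assigned by position to a window around each gene's start, from 500 bp before it to 2500 bp after it, cut 500 bp before the start of the next gene of the locus. All clustered protocadherins are transcribed towards higher coordinates, so the start was the lower coordinate in RefSeq (GRCm38.p6, the assembly behind mm10). The table of gene positions holds no exons, so a window stands for the region of the variable exon, and the constant exons were not placed. Of 58 genes (14 alpha, 22 beta and 22 gamma, with the transcribed pseudogene Pcdhgb8 among them), 46 held at least 1 covered cytosine. The 12 genes with none were Pcdha6, Pcdha7, Pcdha9 and Pcdha10 in the alpha cluster, Pcdhb4, Pcdhb6, Pcdhb8, Pcdhb12, Pcdhb15, Pcdhb19 and Pcdhb21 in the beta cluster, and Pcdhgb5 in the gamma cluster. Pcdhb18 and Pcdhb22 had fewer than 3 covered CpGs and were not tested as windows, which left 44 measured windows: 10 alpha, 13 beta and 21 gamma. Their 2 cytosines each stayed in the values of the beta cluster. Both genes also entered the means with equal weight per gene window, as 2 of 15 beta genes. The windows held 1498 of the 1903 cytosines, 450 alpha, 198 beta and 850 gamma. Median coverage of the locus was 29 to 41 reads per cytosine and library, and the lowest was 10. The median was 29 in control libraries 2, 4 and 5, and 36 to 41 in the other control libraries and all arsenic libraries. At 666 CpGs both strands were read, and their levels differed by a median of 2.62 percentage points.

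The 3 clusters differed in methylation in every library. The level of a cluster is the mean percentage of methylated reads over its cytosines, each with equal weight. It was 10.8% ± 1.50 in the alpha windows, 25.2% ± 2.43 in the beta windows and 15.8% ± 1.09 in the gamma windows (SD, n = 10 libraries). The alpha level of single libraries ran from 8.0% to 13.0%, and no beta library lay under 21.5%. Within a library the beta level exceeded the alpha level by 14.4 points ± 2.72 (SD), the gamma level by 9.40 ± 1.74, and the gamma level exceeded the alpha level by 5.01 ± 1.56. Each of these 3 differences had the same sign in 10 of 10 libraries (two-sided exact sign permutation over libraries, p = 0.00195, the smallest possible with 10 libraries; adjusted over the 3 pairs 0.00195). The sign held but the sizes depended on coverage and on weighting. Over cytosines with at least 20 reads in every library the beta difference was 7.51 points over alpha and 1.45 points over gamma (exact adjusted p = 0.00293 and 0.0195). Those cytosines were 184 alpha, 83 beta and 434 gamma. Without Pcdhga7 and Pcdhgc5, the 2 most methylated gamma windows, gamma exceeded alpha by 2.24 points. With equal weight per gene window the differences were 22.6 points for beta over alpha, 14.6 for beta over gamma and 8.01 for gamma over alpha (exact adjusted p = 0.00195 each). Pcdhb18, at 89.6% on 2 CpGs, had the same weight there as any other window. The settings without Pcdhga7 and Pcdhgc5 and with equal weight per gene window were chosen with the data in view.

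The clusters also differed in how many cytosines were nearly unmethylated. Levels under 10% were found at 52.4% of the alpha cytosines and 51.1% of the gamma cytosines, but at 13.1% of the beta cytosines. Levels over 50% were found at 0.222% of the alpha, 10.6% of the beta and 6.82% of the gamma cytosines. Within the gamma cluster the Pcdhga windows had a level of 17.8% ± 1.17 and the Pcdhgb windows 12.5% ± 2.0. Within the alpha cluster the 2 c-type windows had 6.89% ± 1.26 and the other windows 12.5% ± 2.20.

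**Figure D1:**
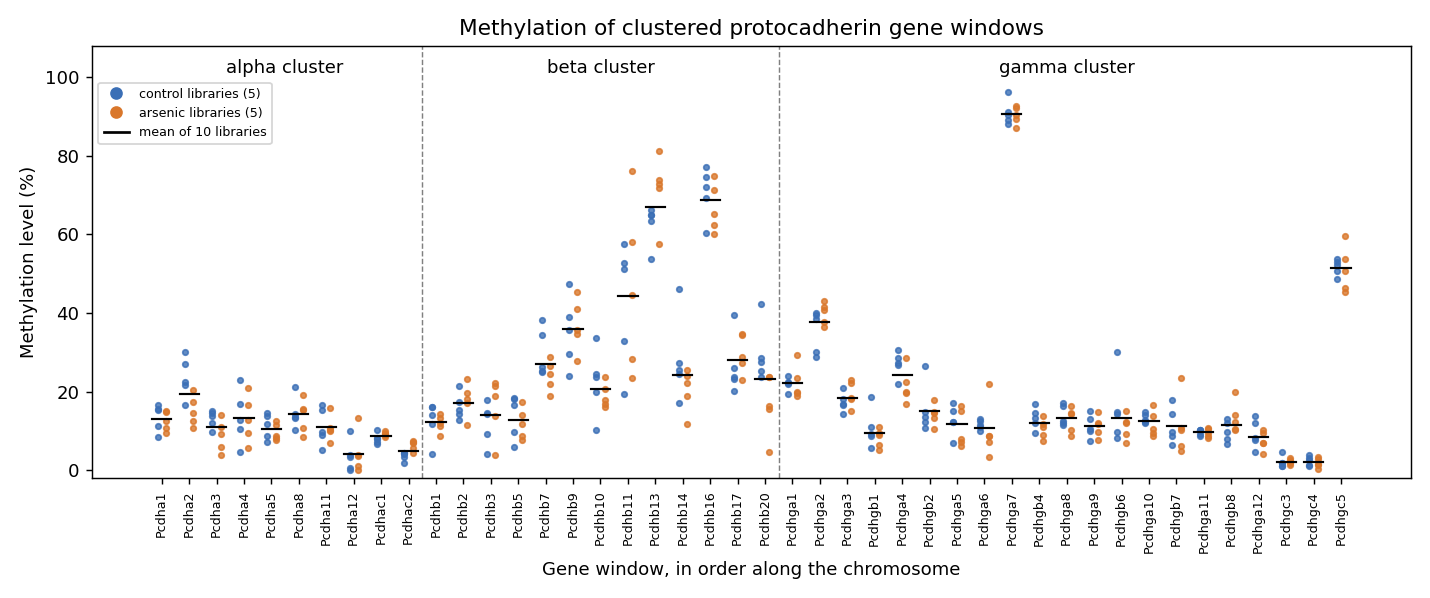
Methylation level (%) of each measured gene window in chromosomal order: points are single libraries of the control and arsenic groups (5 each) and bars the means of all 10. Most windows lie between 5% and 30%, with Pcdhga7, Pcdhb16, Pcdhb13 and Pcdhgc5 above 50%.

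Levels between fully unmethylated and fully methylated were the common state of these windows. In this comparison the read-weighted level was used, the methylated share of the reads summed over the cytosines of a window. It lay between 5% and 30% in 31 of 44 protocadherin windows (70.5%), against 22.2% of the 14183 gene windows of the whole table. Only 9.09% of the protocadherin windows were under 5%, against 60.6% of all gene windows. Over windows with 10 or more CpGs the share between 5% and 30% was 76.7% of 30 protocadherin windows and 23.1% of 11393 gene windows. The locus was chosen as a region, so these shares are a description with no test.

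The alpha windows were low throughout. The highest were Pcdha2 at 19.3% ± 6.18 (6 CpGs, from 2310 to 2449 bp past the start) and Pcdha8 at 14.2% ± 3.94 (42 CpGs). The lowest were Pcdha12 at 4.01% ± 4.40 (7 CpGs) and Pcdhac2 at 4.94% ± 1.77 (40 CpGs). Pcdha12 had no methylated read in control library 3 and in arsenic library 2. A count of 0 would allow levels of up to 0.893% and 1.56% if the calls at its 7 CpGs came from separate reads. A read can cover several of these CpGs, which lie from 131 to 273 bp past the start, so the real limits are probably higher. Median coverage of the window was 18 to 57 reads per cytosine and library. The c-type gene Pcdhac1 was at 8.65% ± 1.14 over 43 CpGs. Pcdha2, Pcdha8 and Pcdha12 encode alternative alpha isoforms, and Pcdhac1 and Pcdhac2 the c-type isoforms of the same cluster.

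The beta windows held both moderate and high levels. Pcdhb16 was the highest at 68.7% ± 6.34 (5 CpGs), followed by Pcdhb13 at 67.1% ± 8.07 (11 CpGs). The 10 libraries ran from 60.2% to 77.2% for Pcdhb16 and from 53.8% to 81.1% for Pcdhb13, above every library of the lowest beta windows. Pcdhb1, the first gene of the cluster, was lowest at 12.2% ± 3.63 (15 CpGs), and Pcdhb5 was at 12.8% ± 4.68 (20 CpGs). Pcdhb18, with 2 CpGs and therefore not among the measured windows, had 89.6% ± 8.63, and Pcdhb22, also with 2 CpGs, had 19.0% ± 13.3. The beta genes encode adhesion proteins that lack the shared intracellular constant part.

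Libraries differed most at 2 beta windows. The Pcdhb11 window, with 3 CpGs and 47 to 183 reads per library summed over its 3 cytosines, ran over 57.0 points. Its median coverage was 16 to 61 reads per cytosine and library. In the control libraries 1 to 5 the read-weighted level of this window was 52.7%, 51.1%, 32.8%, 19.3% and 57.4%, and in the arsenic libraries 28.2%, 23.5%, 58.0%, 44.7% and 76.2%. The 2 groups overlapped over most of that range. The extremes had 95% Wilson intervals of 12.4% to 28.8% and 69.5% to 81.9%, which did not overlap. Such intervals treat every call as a separate read, though a read can cover several of the 3 CpGs, so they are probably too narrow. The gap was not tested with each read counted once. Intervals cover counting error only, since reads carry no molecular identifiers. The Pcdhb20 window (4 CpGs) ran from 4.53% to 42.3% in mean level.

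Among the measured windows, the gamma cluster held both the highest and the lowest. Pcdhga7 was at 90.7% ± 2.60 (6 CpGs, from 1347 to 1499 bp past the start), with single cytosines from 86.3% to 96.2%. Pcdhgc5 was at 51.4% ± 4.16 (26 CpGs). The lowest windows were the neighbouring c-type genes Pcdhgc4 at 2.13% ± 1.17 (19 CpGs) and Pcdhgc3 at 2.15% ± 1.05 (70 CpGs). No library of Pcdhgc3 passed 4.61%, and none of Pcdhgc5 was under 45.3%, so these 2 genes of the same type and cluster did not overlap. Of the 44 windows, 4 had a level under 5%, 4 from 5% to 10%, 22 from 10% to 20% and 14 at 20% or more; 7 of these reached 30% and 4 reached 50%.

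Methylation varied with distance from the gene start, and the sign of the difference was not the same in the 3 clusters. The start part was taken up to 500 bp past the start, the body beyond it. In the gamma windows the level was 11.2% ± 1.09 at the start and 18.5% ± 1.30 in the body, a within-library difference of 7.31 points ± 1.19, positive in 10 of 10 libraries (exact sign permutation, p = 0.00195, adjusted over the 3 clusters 0.00293). In the alpha windows it was 9.58% ± 1.90 and 12.3% ± 1.95, a difference of 2.77 points ± 2.41, positive in 10 of 10 (exact adjusted p = 0.00293). The c-type windows Pcdhac1 and Pcdhac2 are part of this alpha value, which was not computed without them. In the beta windows the start was higher, 28.0% ± 2.39 against 24.2% ± 2.91, a difference of -3.79 ± 3.02, positive in 2 of 10 libraries (exact adjusted p = 0.00977). The beta direction did not hold across settings. Over cytosines with at least 20 reads (20 at the start and 63 in the body) the body was higher by 10.4 points, and weighted by reads the difference was -0.000768. The start part of the beta cluster held only 53 cytosines, those of Pcdhb13, Pcdhb16 and Pcdhb9 among them with window parts at 64.2%, 68.7% and 69.8%.

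**Figure D2:**
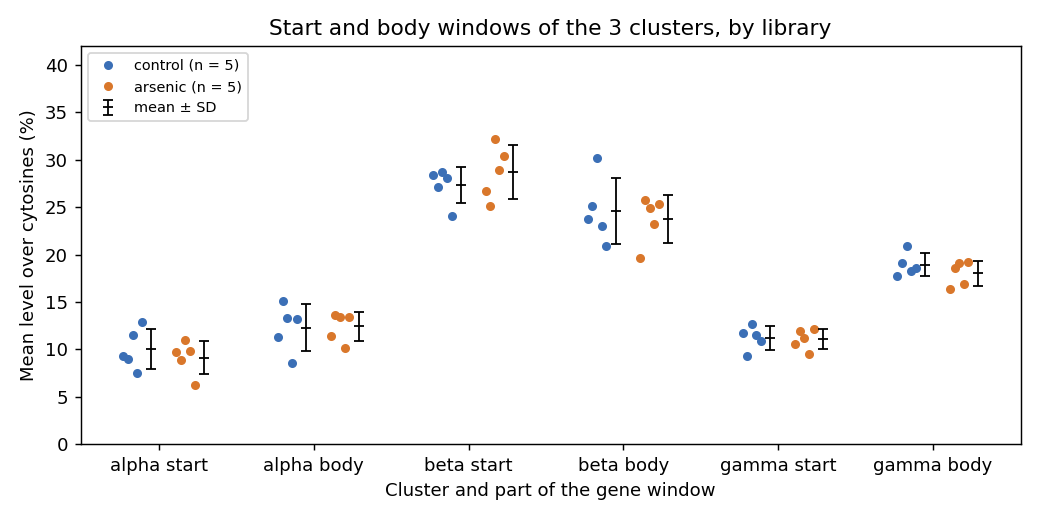
Mean level over cytosines (%) of the start and body parts of the alpha, beta and gamma windows, 1 point per library, with mean ± SD of the 5 control and 5 arsenic libraries. Gamma bodies lie above gamma starts in every library, while control and arsenic points overlap in all 6 parts.

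Different genes could contribute to start and body, so windows covered in both parts were compared with equal weight per gene, a check added after the data were seen. The difference was 9.55 points ± 1.51 over 15 gamma windows and 3.26 ± 2.14 over 8 alpha windows, both positive in 10 of 10 libraries (exact p = 0.00195 each). Over 8 beta windows it was -7.83 ± 4.87, positive in 1 of 10 (exact p = 0.00391). The body was above the start in 13 of 15 gamma, 5 of 8 alpha and 4 of 8 beta windows. The largest alpha rise was that of the c-type gene Pcdhac1, from 4.62% to 23.0%. Pcdha1, Pcdha3 and Pcdha5 were lower in the body than at the start. The alpha difference was not computed without the c-type windows. This check was not run without Pcdhgc5, which was at 88.4% at the start and 32.2% in the body. With equal weight per cytosine over all gamma windows, the difference was 8.80 points without Pcdhga7 and Pcdhgc5, against 7.31 with them.

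By distance the gamma level peaked in the middle of the window. It was 11.3% ± 1.2 from the start to 500 bp (278 cytosines, 16 genes), 12.1% ± 1.81 from 500 to 1000 bp and 24.9% ± 0.99 from 1000 to 1500 bp (237 cytosines, 15 genes), then 16.7% ± 3.03 from 1500 to 2000 bp. Without Pcdhga7 and Pcdhgc5 the same bins gave 7.25% ± 1.13, 12.1%, 22.0% ± 1.01 and 9.80% ± 3.63. Without these 2 windows every library was higher at 1000 to 1500 bp than the highest library at 0 to 500 bp, 9.29%. The alpha level was 8.31% ± 4.0 at 1000 to 1500 bp, where only Pcdhac2 was covered (22 cytosines of 1 gene). It was 20.3% ± 5.20 at 1500 to 2000 bp (29 cytosines of 3 genes) and 14.9% ± 2.81 at 2000 to 2500 bp (68 cytosines of 4 genes). These bins hold different genes and are a description.

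**Figure D3:**
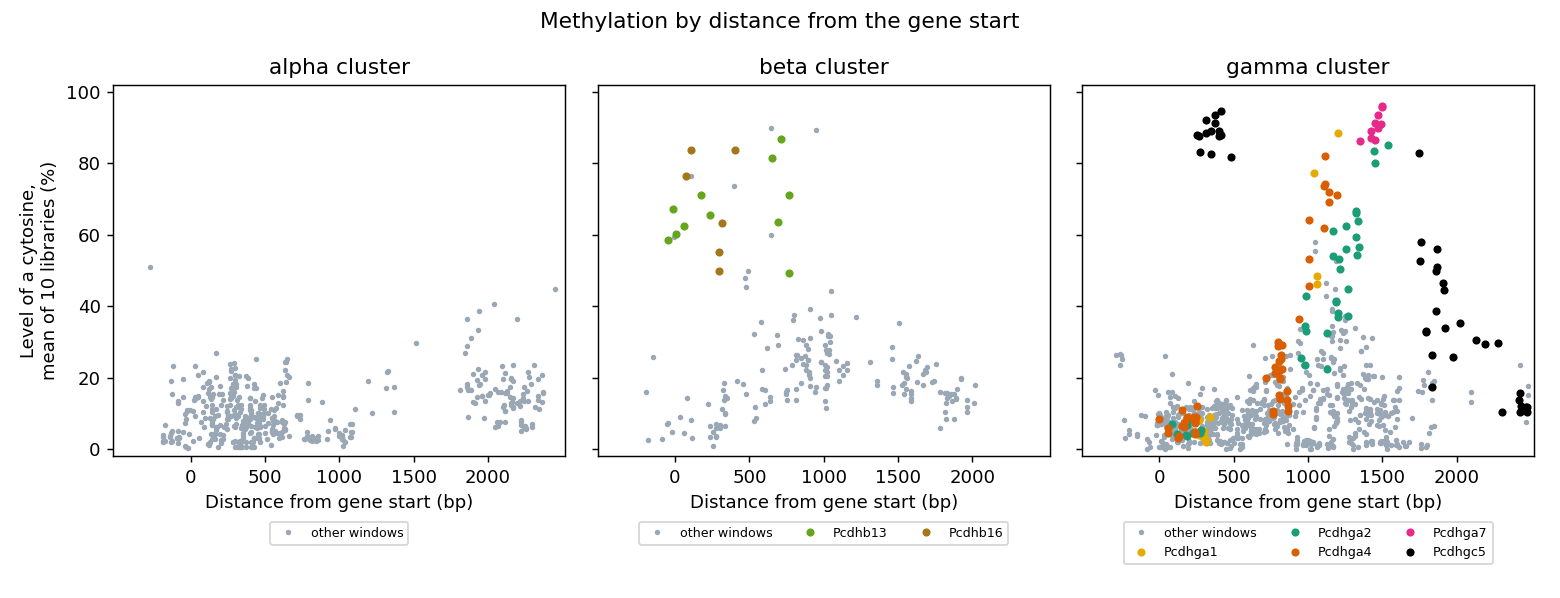
Level of each cytosine (%, mean of 10 libraries) against distance from the gene start (bp) in the 3 clusters, with 7 windows coloured. Pcdhga1, Pcdhga2 and Pcdhga4 climb from under 15% near the start, and only their highest cytosines past 1000 bp exceed 80%. Pcdhgc5 falls from over 80%.

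The rise was steep in Pcdhga1 to Pcdhga4, early in the gamma cluster. Pcdhgb1, which lies among them, was covered only from 56 to 266 bp. Pcdhgb2, directly after Pcdhga4, was at 8.41% at the start and 18.3% in the body. Pcdhga1 was at 4.94% ± 3.77 from 193 to 339 bp past the start (6 CpGs) and at 65.1% ± 3.16 from 1037 to 1204 bp (3 CpGs). Pcdhga2 passed from 5.55% ± 4.19 (86 to 279 bp) to 31.9% ± 6.09 (955 to 984 bp), 52.8% ± 6.91 (1128 to 1447 bp) and 85.1% ± 10.6 at 1538 bp, a single cytosine. In Pcdhga2 the highest library of the first stretch, 15.8%, was below the lowest of the next, 23.7%. Pcdhga3 passed from 7.30% ± 2.42 (258 to 461 bp) to 19.5% ± 6.97 (523 to 947 bp) and 42.8% ± 2.99 (1045 to 1186 bp). Pcdhga4 passed from 7.20% ± 4.17 (-6 to 254 bp) to 20.5% ± 8.70 (716 to 938 bp) and 66.8% ± 3.82 (1003 to 1194 bp). The window mean of such a gene therefore joins a nearly unmethylated start with a methylated stretch about 1 kb (1000 bp) into the window.

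The rise was shallower in 3 genes further along the cluster. Pcdhga8 stood at 9.46% ± 3.80 (40 to 444 bp) and 23.4% ± 4.12 (1030 to 1251 bp). Pcdhga9 stood at 8.90% ± 2.68 (30 to 486 bp) and 18.6% ± 5.36 (1030 to 1221 bp), and Pcdhga11 at 6.29% ± 2.64 (-126 to 130 bp) and 15.7% ± 2.42 (1011 to 1402 bp). Pcdhga10, in the same part of the cluster, had read-weighted levels of 6.70% in the tile chr18:37747001-37748000 and 28.2% in the tile chr18:37748001-37749000. The Pcdhga genes encode one subfamily of gamma isoforms. Pcdhga7, at 90.7%, was covered only from 1347 to 1499 bp, so its start was not measured.

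The c-type genes showed 3 patterns. Pcdhgc3 was flat: 1.81% ± 1.38 up to 499 bp, 2.09% ± 2.30 from 524 to 1000 bp, 2.36% ± 1.23 from 1011 to 1491 bp and 2.19% ± 1.47 from 1507 to 1849 bp. Pcdhgc4 was likewise low in both parts, at 2.21% up to 500 bp and 1.83% beyond (5 cytosines). Pcdhac1 and Pcdhac2 rose, the first from 4.62% ± 1.70 (-187 to 401 bp) to 23.0% ± 4.01 (1847 to 2041 bp), the second from 1.37% ± 2.96 (286 to 429 bp) to 3.76% ± 2.36 (593 to 997 bp) and 8.31% ± 4.0 (1016 to 1371 bp). Pcdhgc5 ran the opposite way, from 88.4% ± 6.01 (250 to 481 bp) to 43.3% ± 6.35 (1745 to 1977 bp) and 18.4% ± 6.72 (2022 to 2474 bp). Every library of the first Pcdhgc5 stretch, at least 74.7%, was above every library of the second, at most 49.0%.

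**Figure D4:**
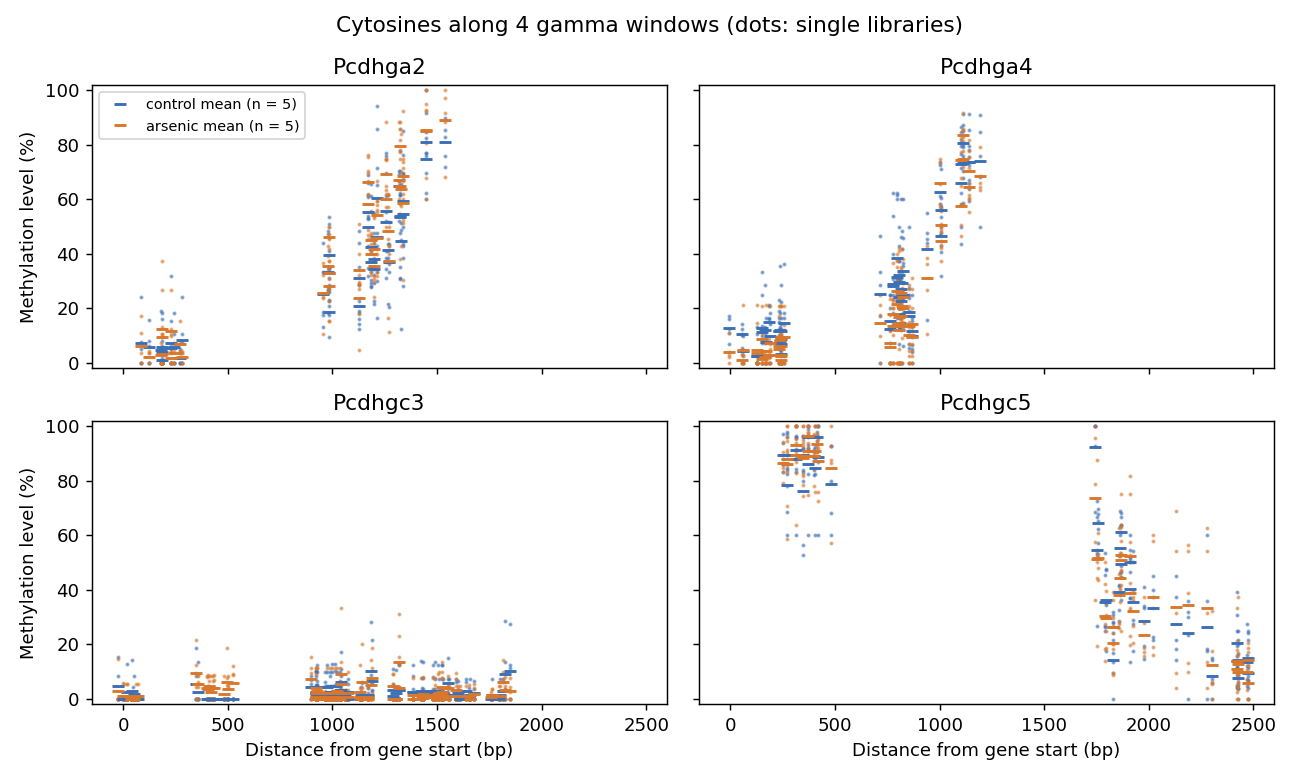
Methylation level (%) of single cytosines against distance from the gene start (bp) in Pcdhga2, Pcdhga4, Pcdhgc3 and Pcdhgc5; dots are libraries and dashes are the means of the 5 control and 5 arsenic libraries. The rise in Pcdhga2 and Pcdhga4, the flat low level of Pcdhgc3 and the fall in Pcdhgc5 appear in both groups.

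Cytosines of the locus outside the gene windows were mostly methylated. Their level was 51.5% ± 1.49 (405 cytosines), and 20 of 30 tiles of 1 kb outside the windows were above 50%. Between windows the level was 51.1% ± 3.49 in alpha (106 cytosines), 62.0% ± 3.25 in beta (16 cytosines) and 71.9% ± 1.59 in gamma (22 cytosines). In the alpha cluster 44 of these cytosines lay in 1 run, chr18:36980090-36980458, at 28.2% ± 8.02 (23 CpGs). The other alpha runs of at least 3 CpGs between windows were at 67.4% to 72.9%. Several short runs of at least 3 CpGs were low. The run at chr18:37218164-37218354, between the alpha and beta clusters, was at 1.84% ± 3.92 (12 CpGs), and chr18:37655533-37655668, before the gamma cluster, at 2.44% ± 1.46 (8 CpGs). Downstream of the last alpha window, chr18:37172356-37172605 was at 5.98% ± 4.63 (7 CpGs), between runs at 90.1% ± 3.60 and 85.8% ± 7.12. Directly after the Pcdhgc5 window, chr18:37822056-37822918 was at 12.3% ± 4.11 (17 CpGs). What the annotation holds inside these runs was not analysed here.

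The group comparison asks whether arsenic and control libraries differed at this locus. The mean level of the whole locus was 23.2%, 23.1%, 25.4%, 21.8% and 23.0% in control libraries 1 to 5, and 22.0%, 23.5%, 24.1%, 22.3% and 23.6% in arsenic libraries 1 to 5. The groups overlapped, with 23.3% ± 1.28 in the control and 23.1% ± 0.90 in the arsenic group (SD, n = 5 each). The difference, arsenic minus control, was -0.181 points for the locus, -0.431 for alpha, -0.228 for beta and -0.630 for gamma (two-sided exact permutation over 252 assignments, p = 0.778, 0.683, 0.913 and 0.357, all 0.913 after adjustment over the 4). The smallest p this design allows is 0.00794. Alpha levels were 11.02% ± 1.99 and 10.6% ± 1.0, beta levels 25.3% ± 2.93 and 25.1% ± 2.17, and gamma levels 16.1% ± 1.02 and 15.5% ± 1.17, control first.

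No protocadherin window was called different between the groups. A window was called at an adjusted p under 0.05 with a difference of at least 10 points, in a quasi-binomial model of the methylated share of reads, whose F test was adjusted by Benjamini-Hochberg over all 14183 gene windows. Of the 44 windows 0 were called, with 0% called over all gene windows. The lowest adjusted p of this F test was 0.673 among the 44 windows and 0.290 over all windows. An unadjusted p under 0.05 was found in 2 of 44 (4.55%), against 6.63% of all gene windows. The pooled level of the arsenic libraries was lower in 31 of 44 windows (70.5%), against 58.5% of all gene windows, with a median difference of -0.72 points against -0.28. Limma, run on the log2 ratio of the read kinds, called 0 of the 44 and 1 of the 14183 gene windows (0.00705%).

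Pcdhac2 had the smallest p of the 44 windows, and was the only window whose groups did not overlap (1 of 44, 2.27%, against 0.924% of all gene windows). Its read-weighted level was 3.30%, 3.76%, 2.79%, 2.98% and 1.75% in control libraries 1 to 5 and 5.12%, 3.92%, 7.06%, 5.31% and 5.02% in arsenic libraries 1 to 5. The arsenic group was at 5.28% ± 1.13 and the control group at 2.92% ± 0.75, a difference of 2.37 points with a standard error of 0.607. It did not pass the test (quasi-binomial F test, p = 0.00492, adjusted p = 0.673). The nearest libraries of the groups, at 3.76% and 3.92%, had 95% Wilson intervals of 3.05% to 4.64% and 3.31% to 4.63%, which overlap. In windows of 500 bp on each side of the start the Pcdhac2 difference was 1.38 points (quasi-binomial F test, p = 0.140), and no protocadherin window had groups that did not overlap under that setting (31 windows) or with at least 20 reads per cytosine (34 windows).

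Pcdha2 had the smallest p among windows lower in the arsenic group. Its read-weighted level was 30.2%, 22.5%, 21.1%, 17.3% and 30.3% in control libraries 1 to 5 and 20.1%, 17.5%, 14.4%, 12.5% and 10.3% in arsenic libraries 1 to 5. The groups overlapped through control library 4, with means of 24.3% ± 5.79 and 14.98% ± 3.91 and a difference of -9.28 points with a standard error of 3.12 (quasi-binomial F test, p = 0.0107, adjusted p = 0.705).

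The other windows named for their small p overlapped between groups, with an adjusted p of at least 0.788. Higher in arsenic were Pcdhb13 (62.3% ± 5.59 in control and 71.5% ± 7.92 in arsenic), Pcdhgb8 (10.6% ± 3.57 and 15.3% ± 4.81) and Pcdhb9 (33.1% ± 10.6 and 40.8% ± 7.72). Lower in arsenic were Pcdhb20 (27.0% ± 7.58 and 16.9% ± 7.76), Pcdhgb4 (13.0% ± 3.26 and 10.2% ± 2.32) and Pcdhga4 (36.9% ± 7.65 and 31.8% ± 3.17). Single libraries set the size of 3 of the fitted differences. Pcdhgb8 moved from 4.37 to 2.49 points without arsenic library 5, and Pcdhb9 from 9.35 to 5.53 without control library 5. Pcdhga4 moved from -5.08 to -2.64 without control library 1 and to -8.07 without control library 4. The most methylated window, Pcdhga7, was at 91.2% ± 3.29 and 91.3% ± 2.26, and Pcdhgc5 at 52.8% ± 2.93 and 49.3% ± 4.83.

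**Figure D5:**
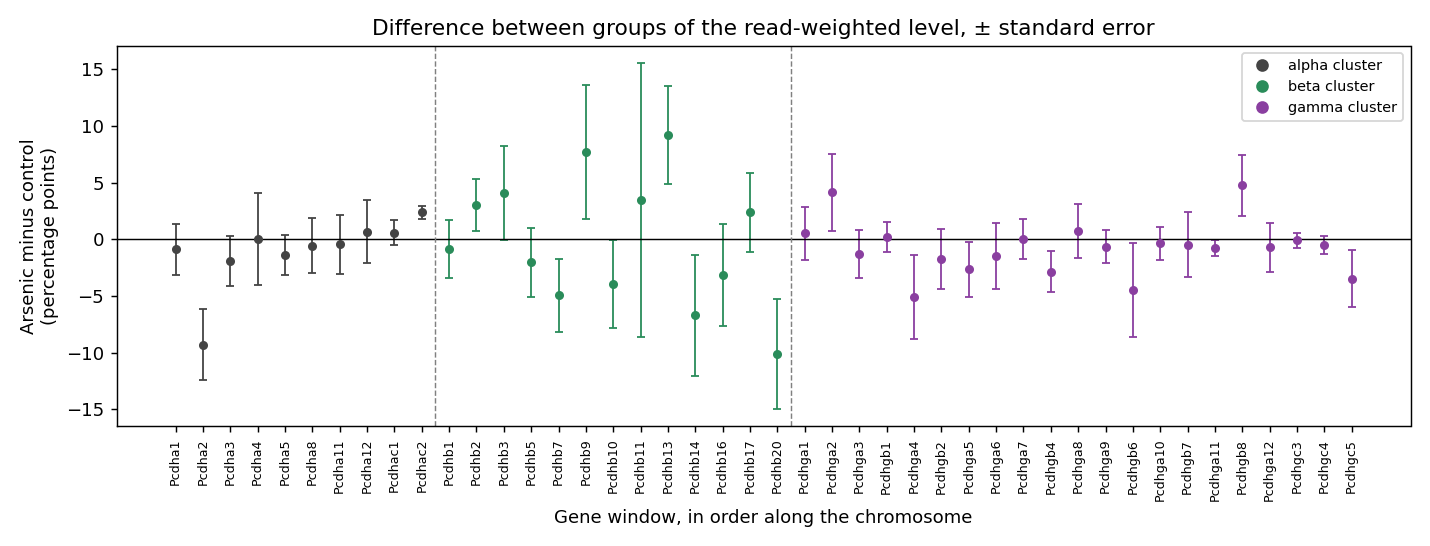
Difference of the read-weighted level, arsenic minus control (percentage points), for the 44 measured windows in chromosomal order; bars are 1 standard error from 5 control and 5 arsenic libraries. Pcdhac2 sits above 0 with a short bar, Pcdha2 and Pcdhb20 have the lowest values, and the beta windows have the widest bars.

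Tiles and single cytosines were tested in the same way. Of 105 tiles of 1 kb in the locus 0 were called (0% of all 165978 tiles), and 9 had an unadjusted p under 0.05 (8.57%, against 5.8%). The groups did not overlap in 1 tile (0.952%, against 0.832%). That tile, chr18:37144001-37145000 in the Pcdhac2 window, was at 2.06% ± 0.42 in control and 4.52% ± 1.78 in arsenic libraries (quasi-binomial F test, p = 0.00362, adjusted p = 0.806). The tile chr18:37442001-37443000 in the Pcdhb13 window was at 55.6% ± 5.32 and 72.6% ± 6.10 (quasi-binomial F test, p = 0.00381, adjusted p = 0.806), with control library 3 at 63.8% and arsenic library 1 at 62.7%. Over single cytosines 0 of 1903 were called (0% of all), 138 had an unadjusted p under 0.05 (7.25%, against 7.11%) and 17 had groups that did not overlap (0.893%, against 0.528%).

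The remaining tiles named for their small p did not pass either, with an adjusted p from 0.806 to 0.858. The tile chr18:36941001-36942000 holds the same reads as the Pcdha2 window. Lower in arsenic were chr18:37755001-37756000 in the Pcdhga11 window (8.63% ± 3.0 in control, 5.06% ± 2.07 in arsenic) and chr18:37748001-37749000 in the Pcdhga10 window (30.5% ± 2.06 and 25.9% ± 3.20). Higher in arsenic was chr18:37236001-37237000, in no gene window (34.0% ± 3.24 and 39.4% ± 2.01).

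Without control libraries 4 and 5, the 2 that stood apart over the whole table, 0 windows, 0 tiles and 0 cytosines of the locus were called, and the locus difference was -0.775 points (exact p = 0.357). The 3 cluster differences had the same sign in all 8 remaining libraries (exact p = 0.00781, the smallest possible with 8).

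Related genes were measured with the same windows and model. Of 12 non-clustered protocadherins, which encode adhesion proteins from genes of their own elsewhere, 10 were measured. Their read-weighted level had a median of 1.95%, and 9 of the 10 were under 5%, against 4 of the 44 clustered windows. The highest were Pcdh12 at 44.7% ± 5.87 and Pcdh1 at 3.18% ± 2.03, both also on chromosome 18; no strand was at hand for them or for Nipbl, so their windows were set at the end richer in covered CpGs, which may be the 3′ end. Of 14 regulators known from work on these clusters 12 were measured, with a median of 2.45%. The highest were Dnmt1, the maintenance DNA methyltransferase, at 35.2% ± 7.34 and Nipbl, the cohesin loader, at 19.0% ± 4.80; Ctcf, which encodes CTCF, was at 1.2% ± 1.43. Of 5 neighbouring genes 1, Diaph1, was measured, at 2.43% ± 0.92. Called were 0 of the 10, 0 of the 12 and 0 of the 1 (0% of all gene windows), and 0 had an unadjusted p under 0.05 (6.63% of all gene windows). The smallest p values belonged to Pcdh9 (2.18% ± 0.98 in control, 1.19% ± 0.39 in arsenic), Pcdh19 (3.5% ± 2.75 and 1.27% ± 0.54) and Pcdh10 (2.39% ± 0.58 and 1.54% ± 0.89). Among the regulators they belonged to Smc1a (7.84% in control library 3, no methylated read in the other 9 libraries, where a count of 0 would allow up to 0.763% to 2.68%), Wapl (0.73% ± 0.40 and 1.49% ± 0.74) and Smc3 (1.37% ± 1.33 and 2.58% ± 1.84), subunits or partners of cohesin. The Smc1a limits treat the calls at its 8 CpGs as separate reads and are probably too low.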

How the data were processed

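The deposited table holds, per the file headers, read counts per cytosine and library: all reads, methylated and unmethylated, not normalised, each strand of a CpG in its own row and every cytosine covered by at least 10 reads in every library. Trim Galore 0.6.5, Bismark 0.22.3, methylKit 1.22.0 and the build mm10 appear in the submitters' processing notes, with settings not given in the sources used here. Reads over all cytosines totalled 69771871 to 100355708 per library, and over the locus 63675 to 92530. A read that covers several cytosines counts once at each of them in these sums and in the read counts of a window.

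Levels, windows (at least 3 covered CpGs), 1 kb tiles and tests were computed with Python 3.11.15 (numpy 2.4.6, scipy 1.17.1, pandas 2.3.3) and R 4.3.3 (limma 3.58.1). The quasi-binomial model had a group term, a dispersion squeezed across features with limma and not under 1, and an F test adjusted over all features of a kind; it was tested on simulated data. Windows of other genes used the strand of a RefSeq promoter table or, for 4338 genes, the end with more covered CpGs. Members, lists and tests were chosen with earlier results of these data known. Named were, in each cluster, the 2 highest and 2 lowest windows, the c-type genes, the 4 windows and 3 tiles with the smallest p in each direction, the 2 windows with the widest range and, per related list, the 2 highest and 3 with the smallest p. Genes named for gradients and window parts were chosen after their values were seen. Groups and library numbers come from the titles, and the numbers did not pair the libraries. Other settings are given at the end.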

Additional observations from a re-analysis of the deposited data

Results flagged for a closer look

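Within a group of 5 libraries, a library whose gap to the nearest other exceeded Dixon's 95% critical value was singled out, which chance alone does in about 1 in 20 groups. How many groups were screened is not given here, and the flagged cases are not all that meet the rule. In the Pcdhb17 window the read-weighted level of control library 3 was 35.6%, with the other control libraries from 21.4% to 25.0%. The flagged cases follow. In the gamma windows the mean level of control library 3 was 17.9%, with the other control libraries from 15.5% to 15.8%. In the Pcdha12 window the read-weighted level of arsenic library 3 was 12.7%, with the other arsenic libraries from 0% to 3.67%. In the Pcdhgc3 window the read-weighted level of control library 4 was 4.35%, with the other control libraries from 1.04% to 1.79%.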

How the results depend on the processing

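The signs and calls of the 3 cluster differences and of body minus start in alpha and gamma held under every alternative run. Body minus start in beta was 10.4 over cytosines with at least 20 reads and -0.000768 by reads; the first rests on fewer cytosines, and for the second the cause was not tested. The beta group difference was 0.404 and 0.713 points under these 2 settings. Leaving out 1 library gave group differences of -0.551 to 0.335 for the locus, -1.19 to 0.0639 for alpha, -1.13 to 0.897 for beta and -0.914 to -0.179 for gamma; the locus difference was positive only without control library 3, arsenic library 1 or arsenic library 4. Equal weight per gene window was a setting chosen with the data in view. The group difference over the 46 genes with a covered cytosine was then -1.34 points (exact p = 0.0873). It was -1.21 for alpha, -2.22 for beta and -0.770 for gamma (exact p = 0.286, 0.159 and 0.294). The beta mean includes Pcdhb18 and Pcdhb22, which are not among the 44 measured windows. Their read-weighted differences were -6.23 and -13.98 points, and this setting was not run without them. Of the 13 measured beta windows, 7 were lower and 6 higher in the pooled level of the arsenic libraries. A binomial test on reads, which ignores the spread between libraries, called 1 window (2.27%, against 0.458% of all gene windows), 2 tiles (1.9%, against 1.2% of all tiles) and 97 cytosines (5.1%, against 4.14% of all). Sign changes in uncalled windows under leaving out 1 library spanned -1.68 to 1.224 for Pcdha12, -1.45 to 1.15 for Pcdha8, -3.18 to 0.135 for Pcdhb1, -2.11 to 12.8 for Pcdhb11, -1.30 to 1.004 for Pcdhga7, -0.307 to 0.440 for Pcdhgc3 and -0.850 to 0.0611 for Pcdhgc4. Without control libraries 4 and 5 the differences were 1.52 for Pcdha12, 0.299 for Pcdha8, 0.692 for Pcdhga7 and 0.315 for Pcdhgc3. Windows of 500 bp on each side of the start gave 0.0812 for Pcdhgb4, 1.79 for Pcdhgc3 and 0.1004 for Pcdhgc4, and 15.02 in place of 9.35 for Pcdhb13; coverage of at least 20 gave -4.82 in place of -10.1 for Pcdhb20. Levels rest on a median of 29 to 41 reads per cytosine, and beta windows on the fewest CpGs.

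Library numbers did not pair the groups: deviations of same-numbered libraries correlated from -0.0126 to 0.0167. With the number as a replicate block, limma called 0 windows, 0 tiles and 0 cytosines, and the locus difference was -0.181 points (exact p = 0.625).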
